A study of Mus musculus with 2 samples.

Results

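Genes of embryonic red blood cells were followed in mouse hearts of embryonic day 12.5, in sorted cells of the Tie2Cre lineage. The set holds 6 genes chosen by symbol: the embryonic globins Hbb-y, Hba-x and Hbb-bh1, the haem enzyme gene Alas2, the erythropoietin receptor gene Epor and the transcription factor gene Klf1. Platform annotation gave them 10 probe sets that name 1 gene, out of 34945 such probe sets for 18193 genes. Control hearts were Tie2Cre;Tbx20 +/loxP and mutant hearts Tie2Cre;Tbx20 loxP/-, so both carried the Cre transgene and a floxed allele of Tbx20, a T-box factor of the developing heart, and differed in whether the other allele worked. Tie2Cre is active in endothelial and endocardial cells and also in blood cells. After enzymatic dissociation, live lineage cells that lacked the blood antigens CD41, CD45 and Ter119 were sorted, and their RNA was labelled with biotin for 1-colour Affymetrix arrays. There was 1 array per genotype, and the labels do not say whether embryos were pooled. No difference below therefore has a replicate check, no p-value was computed, and genotype cannot be told apart from any other difference between both preparations.

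Embryonic haemoglobin is built from alpha-type and beta-type chains that are replaced by adult chains as development goes on. The first red cells of the mouse arise in the yolk sac, enter the circulation while still nucleated, and carry chains of Hba-x, Hbb-y and Hbb-bh1. Klf1 binds CACCC boxes and drives globin and other red cell genes, Alas2 catalyses the first step of haem synthesis in erythroid cells, and Epor receives the erythropoietin signal that keeps erythroid precursors alive. Epor is also known from endothelial cells, whereas globin transcripts are a hallmark of red cells. Ter119 is an antigen of erythroblasts and red cells.

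The promoters of the members are shown because most members read lower on the mutant array while Epor read higher, and their sequences can be set beside these values. RefSeq on GRCm38.p6 gave a promoter for 5 of the 6 members, and Hbb-bh1 was not matched. The 250 bases before each annotated start are printed in the direction of transcription. They lie at chr7:103853208-103853457 on the minus strand for Hbb-y, chr11:32276350-32276599 on the plus strand for Hba-x, chrX:150547167-150547416 on the plus strand for Alas2, chr8:84901732-84901981 on the plus strand for Klf1 and chr9:21963577-21963826 on the minus strand for Epor. Capitals mark matches, on either strand, to the CACCC box (CACCC, or the longer CCACACCC), the GATA site (AGATAA or TGATAA), the TATA box (TATAAA) and the CCAAT box (CCAAT). A match to the longer CACCC box also matches the short one.
Hbb-y: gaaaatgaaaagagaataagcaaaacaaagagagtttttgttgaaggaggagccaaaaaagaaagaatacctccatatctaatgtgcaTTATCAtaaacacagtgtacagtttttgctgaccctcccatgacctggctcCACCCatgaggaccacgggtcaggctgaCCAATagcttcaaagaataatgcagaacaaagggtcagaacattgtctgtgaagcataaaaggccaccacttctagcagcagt
Hba-x: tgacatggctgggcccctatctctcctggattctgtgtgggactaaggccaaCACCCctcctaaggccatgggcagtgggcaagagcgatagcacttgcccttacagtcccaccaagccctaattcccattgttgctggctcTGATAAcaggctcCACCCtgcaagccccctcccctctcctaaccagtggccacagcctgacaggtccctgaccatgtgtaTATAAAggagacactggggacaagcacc
Alas2: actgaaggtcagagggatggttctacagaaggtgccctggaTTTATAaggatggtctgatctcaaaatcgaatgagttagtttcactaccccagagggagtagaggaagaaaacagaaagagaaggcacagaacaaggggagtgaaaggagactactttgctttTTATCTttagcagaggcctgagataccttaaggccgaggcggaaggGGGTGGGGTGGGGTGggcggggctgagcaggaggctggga
Klf1: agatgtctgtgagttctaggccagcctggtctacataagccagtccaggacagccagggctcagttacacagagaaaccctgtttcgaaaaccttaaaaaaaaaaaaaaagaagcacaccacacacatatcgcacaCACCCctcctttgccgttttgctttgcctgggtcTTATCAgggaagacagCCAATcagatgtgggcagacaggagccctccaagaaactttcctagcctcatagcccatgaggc
Epor: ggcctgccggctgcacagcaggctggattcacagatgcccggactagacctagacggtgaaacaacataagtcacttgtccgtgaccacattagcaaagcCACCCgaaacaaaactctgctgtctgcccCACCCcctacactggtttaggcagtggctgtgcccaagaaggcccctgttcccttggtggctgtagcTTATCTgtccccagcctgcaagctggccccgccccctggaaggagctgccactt

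Each of the 5 printed promoters held a CACCC match and a GATA match. CACCC was found in 52.0% of the 32851 RefSeq windows of this length, and either GATA form in 16.6%. The match of Hbb-y to CACCC lay at bases -111 to -107 from the start, that of Klf1 at -114 to -110, and the nearer of the 2 in Hba-x at -95 to -91. Alas2 held 3 in a row, read on the opposite strand, between -40 and -26. Epor held 2 CACCC matches, at -150 to -146 and at -121 to -117, and a GATA match at -54 to -49. The longer form was found in none of the 5 windows and in 3.2% of all windows. Hbb-y and Klf1 also held a CCAAT match (33.8% of windows), and Hba-x and Alas2 a TATA match (12.4%). The TATA match lay at -28 to -23 in Hba-x, and at -209 to -204 on the opposite strand in Alas2. The GATA match had the letters AGATAA in Epor and Alas2, and TGATAA in Hbb-y, Hba-x and Klf1. These matches are letters in a window and not measured binding sites.

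Tbx20, the targeted gene, was detected on both arrays, and its 3 probe sets stood at 84.0%, 85.9% and 60.2% of control in the mutant (7638 to 6416, 6128 to 5262 and 7050 to 4245). Since the deleted exons are not named in the labels, this is no check of the deletion. A probe set counted as measured where its signal lay above a floor on both arrays, the floor being the median of all probe sets that are not array controls, 91.3 in the control and 82.4 in the mutant. This left 19273 single-gene probe sets, whose log2 ratios of mutant over control had a median of -0.0007 and an SD of 0.40. Endothelial and endocardial markers of the sorted lineage were all measured, 15 of 15, with a median of 0.01 (-0.005 after median scaling). Of these, 7 read lower and 8 higher, and Cldn5 was the widest at -0.70 (900 and 556). The 5 probe sets of Nfatc1 ran from -1.58 to 0.16, with the brightest at -0.33. Array controls differed in the same pair: every one of 18 measured spike probe sets was lower on the mutant array, at a mean log2 ratio of -0.45, and Gapdh had a 3' over 5' signal ratio of 2.27 on the control and 1.64 on the mutant array (Actb 0.989 and 0.998). The part of these controls in the values below was not tested.

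Of the 10 member probe sets, 9 were measured and 1, that of Alas2, was above the floor on the control array only. Of the 9, 8 read lower in the mutant and 1 higher, where 50.1% of all measured probe sets read lower. That share was 58.0% for a mean signal under 200, 49.4% from 200 to 1000 and 47.2% from 1000 up. Each of these classes held 3 of the 9. The median log2 ratio of the 9 was -0.89. At 2-fold, 2 of the 9 were lower and 0 higher, against 1.46% lower and 0.773% higher among all measured probe sets. By gene, 4 of the 5 measured members were lower and 1, Epor, was higher. Among all 10665 measured genes, 51.0% were lower by their brightest probe set. In cells taken as a bulk, fewer cells of a type and less RNA per cell cannot be told apart.

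**Figure D1:**
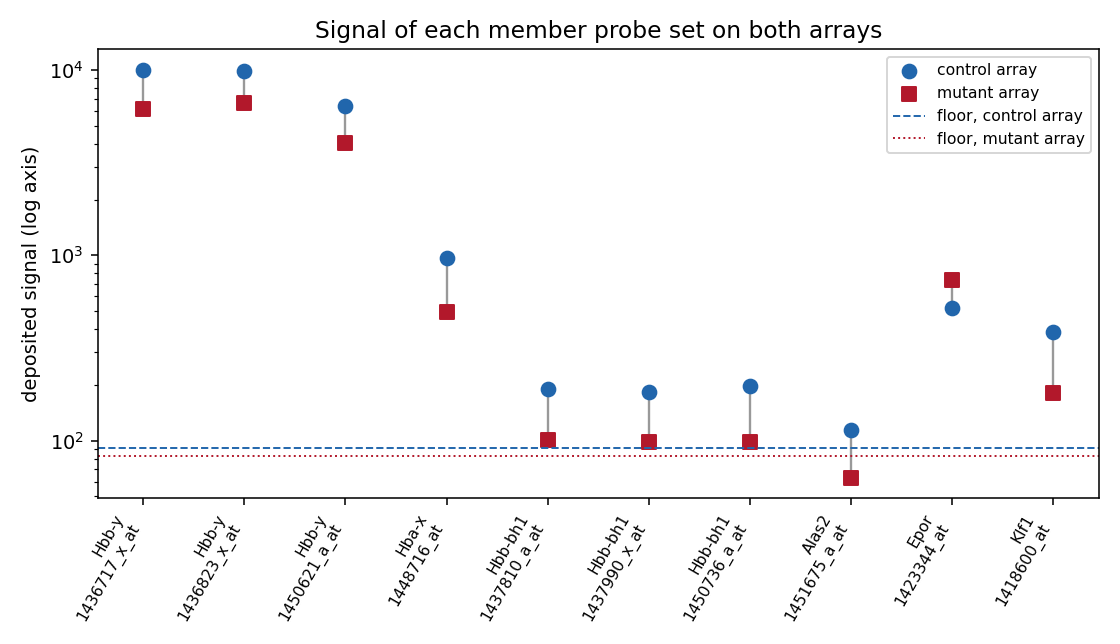
Deposited signal on a log axis for each of the 10 member probe sets, with a circle for the control array, a square for the mutant array and lines for the floors of 91.3 and 82.4. The mutant square lies under the control circle for every probe set except that of Epor, and the mutant signal of Alas2 lies under its floor.

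Hbb-y, the embryonic beta-type globin known as epsilon-y, gave strong signal on both arrays. Its probe set 1436717_x_at read 10018 on the control array and 6136 on the mutant array, 1436823_x_at read 9843 and 6606, and 1450621_a_at read 6376 and 4058. The mutant signals were 61.3%, 67.1% and 63.6% of control, so all 3 were lower and none reached 2-fold. The log2 ratios were -0.71, -0.58 and -0.65, a mean of -0.64 (SD 0.07 over 3 probe sets), or 1.56-fold lower. Probe sets of 1 gene read the same RNA, so this SD covers probe error and not embryos. Among the 6500 measured probe sets with a mean signal of 1000 or more, 0.477% were at least 2-fold lower, and 3.15% had a lower ratio than the highest of the Hbb-y probe sets. Hbb-y thus lay near the low edge of the bright probe sets although its fold was modest. The letter x in 2 of the 3 identifiers marks probe sets with probes that may read similar transcripts.

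Hba-x, the embryonic alpha-type globin zeta, had signals of 968 on the control array and 495 on the mutant array from its 1 probe set. The mutant signal was 51.1% of control, a log2 ratio of -0.97, or 1.96-fold lower, just outside the 2-fold rule. Of the 9462 measured probe sets with a mean signal from 200 to 1000, 1.24% were at least 2-fold lower and 1.37% had a lower ratio than Hba-x.

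Hbb-bh1, the embryonic beta-type globin beta-h1, was dim on both arrays, and lies beside Hbb-y on chromosome 7 in the RefSeq gene order. Its probe set 1437810_a_at read 191 on the control array and 100.4 on the mutant array, 1437990_x_at read 182 and 98.4, and 1450736_a_at read 197 and 98.2. All 3 mutant signals lay at 1.19 to 1.22 times the floor of that array, close to background, while the control signals reached up to 2.16 times theirs. The log2 ratios were -0.93, -0.89 and -1.01, a mean of -0.94 (SD 0.06 over 3 probe sets), or 1.92-fold lower. Only 1450736_a_at passed 2-fold, at 2.01-fold, while the others stood at 1.90-fold and 1.85-fold. Of the 3311 measured probe sets with a mean signal under 200, 4.02% were at least 2-fold lower, so a ratio of this size was more frequent among dim probe sets than among bright ones.

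**Figure D2:**
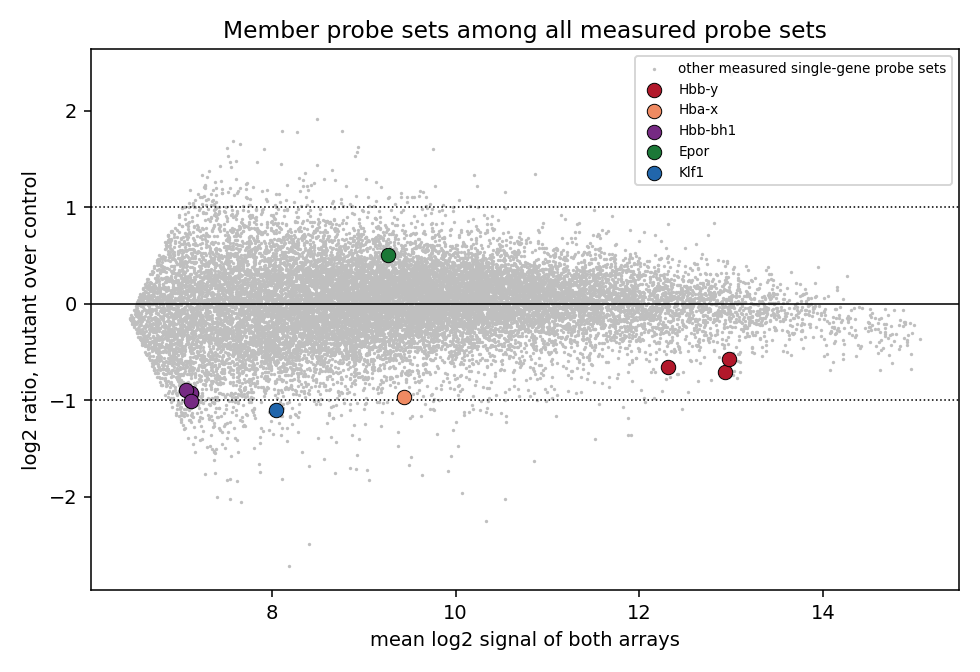
Log2 ratio of mutant over control against the mean log2 signal of both arrays for the 19273 measured single-gene probe sets (grey), with the 9 measured member probe sets in colour and dotted lines at 2-fold. Hbb-y lies at the low edge of the bright probe sets, Hbb-bh1 in the widely spread dim class, and Epor above 0.

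Klf1 had signals of 387 on the control array and 180 on the mutant array from its 1 probe set, 46.6% of control. Its log2 ratio of -1.10, or 2.15-fold lower, was the lowest among the measured members, and 0.835% of the measured probe sets of its brightness class had a lower one. The embryonic globin genes, among the genes that the factor is known to regulate, were lower on the same array. Whether the Klf1 and globin readings are linked was not tested. Alas2 had a control signal of 114 and a mutant signal of 63.1, the latter under the floor of 82.4. Its signal was at least 1.38-fold lower in the mutant when set against that floor, and since only the control signal was above background, it adds nothing to the count of lower members.

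Epor was the 1 member that read higher. Its control signal was 517 and its mutant signal 735, 142% of control, a log2 ratio of 0.51, or 1.42-fold higher. Of the measured probe sets of its brightness class, 90.7% had a lower ratio. The SD between probe sets of 1 gene in the under 200, 200 to 1000 and over 1000 classes was 0.49, 0.36 and 0.24, and it gives the only error available for a difference between members. The ratio of Epor exceeded that of Klf1 by 1.61 (probe set error 0.51). The ratio of Hba-x was lower than that of Epor, by a difference of -1.48 (error 0.51), and those of Hbb-bh1 and Hbb-y by -1.45 (error 0.46) and -1.15 (error 0.38). Each of these 4 differences was 2.92 to 3.18 times its error. All 4 share the value of the 1 Epor probe set, so they are not separate observations. Among the other members no pair differed by more than 1.19 times its error, the widest being Hbb-y above Klf1 by 0.46 (error 0.38). The pairs with Epor were thus the widest, and an error between probe sets gives no test of genotype.

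The adult globins of the same gene clusters gave unequal readings. Their transcripts come from near-identical copies, so 4 of their 8 probe sets name several genes. The 3 probe sets shared by both adult alpha-globin genes, Hba-a1 and Hba-a2, had control signals of 509.95, 1367 and 1049.9 and mutant signals of 276, 472 and 529, at log2 ratios of -0.88, -1.53 and -0.99. These lay close to or below the ratio of Hba-x, which neighbours Hba-a1 on chromosome 11. The probe set that names Hba-a2 alone read 7545 and 7623, a log2 ratio of 0.01 (-0.002 after median scaling). Probe sets annotated to 1 alpha-globin gene and to both thus went apart, and which of them reads the mature transcript was not tested. The probe set shared by 4 adult beta-globin genes read 267 and 265, a log2 ratio of -0.01 (0.03 after loess and 0.04 after quantile normalization). The 2 probe sets of Hbb-b2 alone and that of Hba-a1 alone were under the floor on both arrays. The embryonic beta-type genes read -0.58 or lower and the adult beta-type probe set -0.01 on the same arrays. That adult value rests on 1 probe set at 2.93 and 3.21 times the control and mutant floors. The SD between probe sets of 1 gene in its brightness class was 0.36, and no error was computed for this contrast.

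**Figure D3:**
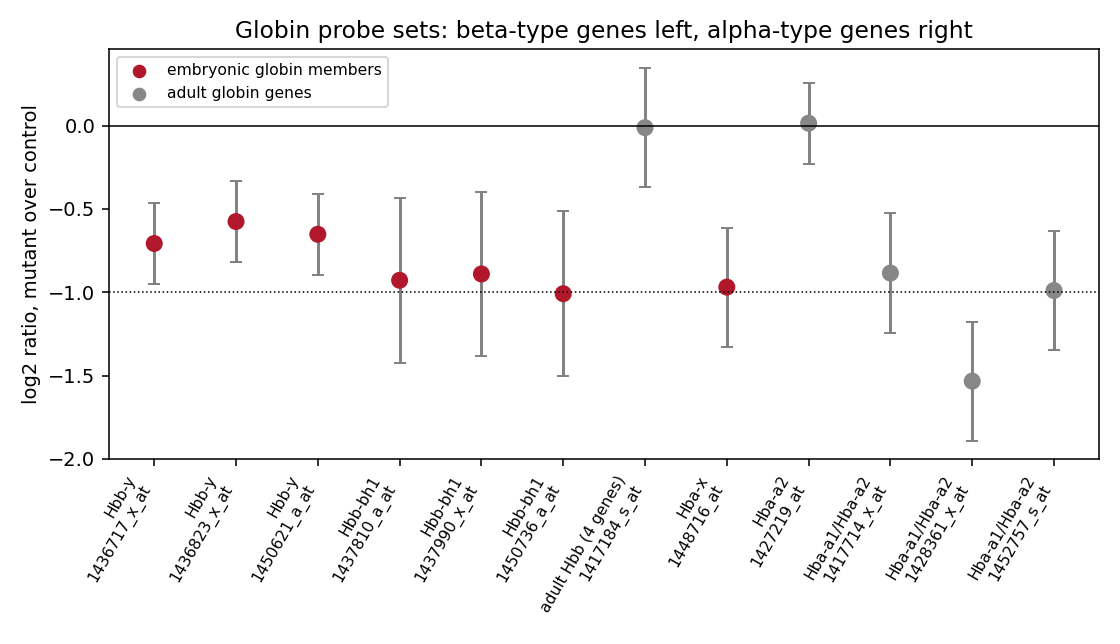
Log2 ratio of mutant over control for each globin probe set above the floor on both arrays, with beta-type genes on the left and alpha-type genes on the right; bars are the SD between probe sets of 1 gene in the same brightness class. The 7 embryonic probe sets (red) lie between -1.01 and -0.58, and the adult ones (grey) between -1.53 and 0.01.

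Other genes with a role in red cells, taken from lists, had medians near 0 where measured, with single members on either side and many under the floor. These medians do not cover genes under the floor, such as Slc4a1 and Rhag. Whether the signal of the measured genes came from red cells was not tested. Of 27 genes of the red cell membrane and surface on the array, 15 were measured, 7 lower and 8 higher, with a median of 0.02 and 0 at 2-fold. Its widest measured members were the adducin gene Add2 at 0.68, read at 102 and 164, the biliverdin reductase gene Blvrb at 0.47, Tspan33 at 0.44 and the carbonic anhydrase gene Car2 at -0.44. Add2 and Tspan33 lay close to the floor on the control array. Under the floor on both arrays were 11, among them the anion exchanger gene Slc4a1, which read 66.1 and 63.1, the spectrin anchor gene Ank1 and Rhag. The haem synthesis and iron supply list had 19 measured genes, 10 lower and 9 higher, with a median of -0.02. By each gene's brightest probe set, the widest was the haem exporter gene Flvcr1 at 0.51, read at 105 and 151. The other members with the widest ratios were Hmox1, which breaks haem down, at 0.46 (750 and 1030), the haem pathway enzyme gene Urod at -0.43 (6356 and 4710), and Tfrc, the transferrin receptor, at -0.43. The second Urod probe set was at 0.01, and the highest of the 3 Tfrc probe sets at 0.02. Second probe sets also went further from 0, at -1.27 for Alad and -0.91 for Ppox, both haem enzyme genes whose brightest probe sets stood at 0.10 and -0.02. Read by brightest probe sets, this list thus had no common direction. Its median over genes lay 0.87 above the members' median over probe sets, which was -0.97 with 1 value per gene.

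Of 26 erythroid transcription factor genes, 18 were measured, 13 lower and 5 higher, with a median of -0.08 and 0 at 2-fold. After quantile normalization and after loess 11 were lower and 7 higher. Gata1, Nfe2, Gfi1b and Myb, all central to red cell formation, were under the floor on both arrays. Gata2, a factor of progenitors and endothelium, read 1440 and 2027 (0.49), and Mafk, a partner of Nfe2, 639 and 444 (-0.52). Sox6, which represses embryonic globin genes in definitive cells, was at -0.47, and Klf2, a relative of Klf1 that endothelial cells also express, at -0.46. Thus Klf1 had the lowest ratio among the measured erythroid factors, as read by each gene's brightest probe set, although the lowest of the 3 Sox6 probe sets was at -1.29.

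The erythropoietin pathway list had 18 measured genes, 11 lower and 7 higher, with a median of -0.09 and 0 at 2-fold. Cish, a feedback inhibitor induced by Stat5, read 621 and 314 (-0.98), and Socs3, another feedback inhibitor of cytokine receptors, 1926 and 1004 (-0.94), with its other probe sets up to -0.81. Stat5b, which transmits the signal of Epor, read 701 and 435 (-0.69), and the factor gene Foxo3 was at -0.60, with another probe set at -0.16. Among the 7 that read higher, as Epor did, were the adaptor genes Grb2 at 0.47 and Shc1 at 0.28 and the survival gene Bcl2l1 at 0.25, whose lowest probe set was at -1.08. Stat5a, the close relative of Stat5b, was at 0.06. Other cytokine receptors use these genes as well, and the list as a whole had members on both sides.

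Cells that the sort removed were checked through their markers. Megakaryocyte and platelet genes had 3 of 11 measured, and Itga2b, which encodes CD41, was under the floor at 41.1 and 28.6. The median of the 3 was -0.36. Over this list the signals, those under the floor included, summed to 1632 on the control array and 1407 on the mutant array. Clec1b alone read 896 and 700. Itgb3, which is also a gene of endothelial cells, read 283 and 99.6, the latter close to the mutant floor of 82.4. Leukocyte genes had 3 of 18 measured, with a median of 0.34 and a summed signal of 2504 and 2795. Ptprc, which encodes CD45, was under the floor on both arrays. Heart muscle genes had 14 of 15 measured, at a median of 0.05 and a summed signal of 27147 and 30158. Of the 14, 5 read lower and 9 higher, the widest being Myl7 at 0.83 (3811 and 6753). Nppa was the lowest, at -0.48. The embryonic globins thus gave signal in cells sorted as Ter119-negative, and which cells it came from was not tested.

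**Figure D4:**
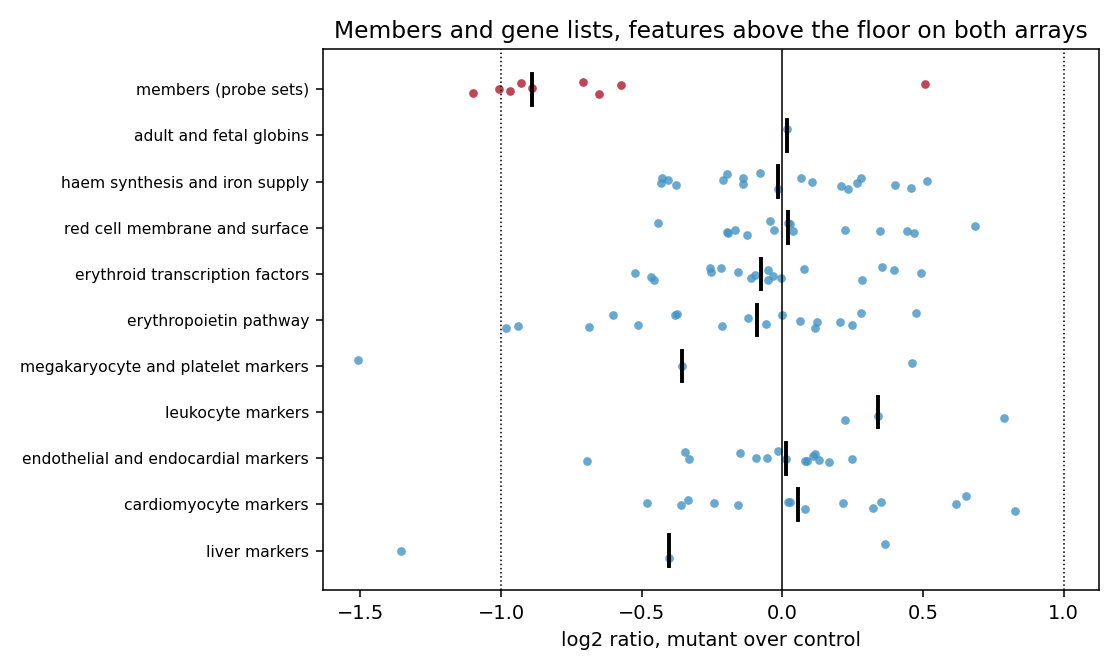
Log2 ratio of mutant over control for the 9 measured member probe sets (red) and for measured genes of each list (blue), with black bars at medians and dotted lines at 2-fold. The members' median of -0.89 lies to the left, while the haem synthesis, red cell membrane and endothelial medians lie between -0.02 and 0.02.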

How the data were processed

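Expression was measured on 1 array of control and 1 array of mutant cells. The deposited values are linear intensities, a single value for each probe set, which the submitters' processing notes credit to MAS5. This method subtracts mismatch from perfect-match probes and scales an array by 1 factor, and the mean without the lowest and highest 2% was 500 on each array. Dim ratios are noisy after that subtraction. The sources used here do not give its version or a genome build.

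Of 45101 probe sets, 64 were array controls. Of the rest, 34945 named 1 gene, 932 several and 9160 none, and 34741 of the 34945 matched a RefSeq gene identifier. Signals were used as deposited. A listed gene took the value of its brightest probe set. The text names, from each list, some of the up to 4 genes with the widest ratios, and genes under the floor; other names were chosen after their values were seen. Members and lists were chosen with earlier results of these data known. Alternatives were median scaling, quantile normalization, loess (span 0.3), a pseudocount, other floors and folds. Steps used Python 3.11.15, pandas 2.3.3 and statsmodels 0.14.6, were tested on simulated data, and the number of arrays limits the precision.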

Additional observations from a re-analysis of the deposited data

How the results depend on the processing

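The 9 member ratios kept their direction in all 51 values under scaling, normalization, pseudocount, floor and probe set alternatives. Floor and probe set alternatives only choose which probe sets are kept, so their values repeat the main ratios and could not move. Under median scaling, quantile normalization, loess and a pseudocount, each ratio moved by less than the SD between probe sets of 1 gene in its brightness class. The members' median ran from -0.97 to -0.64. The count of member probe sets at least 2-fold lower was 2 as reported, 1 after quantile normalization, 1 with unsuffixed probe sets, 0 with a pseudocount, 0 with the floor at percentile 75, 7 at 1.5-fold and 0 at 3-fold. Lower calls made up 65.3% of all 2-fold calls as deposited, 69.6% after median scaling, 55.3% after quantile normalization and 56.0% after loess. Only Hbb-y was measured among the members with the floor at percentile 75. With the floor at percentile 25, Alas2 was measured at -0.85. No replicate could be left out, since each genotype has 1 array, and no paired analysis was possible because of the same limit.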

Other observations

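Markers of platelets, leukocytes and liver read unevenly. Itgb3, an integrin subunit of platelets and of endothelial cells, had signals of 283 and 99.6 on the control and mutant arrays, a log2 ratio of -1.51, while the platelet chemokine gene Pf4 read 214 and 295 (0.46) and Clec1b 896 and 700 (-0.36). Among leukocyte genes, Csf1r and Cx3cr1 were above the floor in the control only, at least 1.74-fold and 2.74-fold higher there. Mrc1 and Coro1a were above it in the mutant only, at least 1.26-fold and 1.02-fold higher there. Cd68 read 93.8 and 162 (0.79), with its control signal close to the floor of 91.3. Liver genes had 3 of 8 measured, and Alb and Afp were under the floor on both arrays. These genes mark liver and not red cells, so their level is no check of red cells in the sort. Apob read 439 and 172 (-1.35), with its second probe set at 0.26, Ttr was at -0.40 with its second at 0.16, and Apoa1 was at 0.36. Ahsg was above the floor in the mutant only, at least 2.26-fold higher there.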
